A study of Mus musculus with 6 samples.

Results

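The genes described are those of the killing granule of CD8 T cells other than the granzymes: perforin (Prf1), the granule proteins Nkg7, Srgn, Lamp1 and Ctsc, and the serpins Serpinb9, Serpinb9b, Serpinb6b and Serpinb1a. They were chosen by name, and each of the 9 symbols matched 1 of the 32285 genes in the count matrices. All 9 had at least 1 unique molecular identifier (UMI, 1 counted transcript molecule) in both tumor libraries, and 8 of 9 had one in each lymph node (LN) library, where Serpinb9b had none.

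Single CD8 T cells came from tumors and LNs of mice of 6 to 10 weeks bearing B16-OVA, a melanoma line that expresses ovalbumin. Control mice carried CD8-Cre and Rosa26Tomato, and CD8-IFNγRKO mice carried both of these and IFNgR1flox/flox. The CD8-Cre driver acts in mature CD8 T cells and both genotypes carried it together with the Tomato reporter, so the groups differed by the floxed allele. The series' design text puts the harvest at day 12, while the study describes a window of days that opens then. CD45+ CD3+ CD8+ Tomato+ cells were sorted, 3 mice were pooled for each library and about 20000 cells were loaded. There was 1 library per tissue and genotype, so no difference below has a replicate check and none was tested. Intervals are 95% intervals for counting error only.

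A cytotoxic T cell stores perforin and granzymes in secretory lysosomes and releases them at the contact with its target. Perforin opens the target membrane and granzymes, a family of serine proteases, enter and start cell death. Inhibitors of the serpin B clade sit in the cytosol, where each acts as a suicide substrate for particular proteases, and the inhibitor of granzyme B is known to guard cytotoxic cells against granzyme B that leaks from their own granules.

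After the filters on cells, 7103 control tumor, 8636 CD8-IFNγRKO tumor, 6641 control LN and 6731 CD8-IFNγRKO LN cells were kept, with 28841136 to 93995655 UMIs per library. The tumor libraries differed in depth, with a median of 6308 UMIs per cell in the control and 9402.5 in CD8-IFNγRKO, against 4051 and 3863 in LN. Levels are pooled CPM (the gene's UMIs over all UMIs of the kept cells, scaled to a common library total). For shares of cells, every cell was thinned to 1600 UMIs and shallower cells were left out (701, 278, 237 and 41 in the above order). Pairs of libraries shared 51 to 82 kept barcodes, at most 1.23% of the smaller library. Ifngr1, the floxed gene, was at 718 CPM in control and 237 CPM in CD8-IFNγRKO tumor, and at 182 and 137 CPM in LN, and where its reads lie relative to the deleted part is not given in the sources used here. All 7 CD8 T cell markers were present in every library. This was in part set by the selection, since cells were sorted on CD3 and CD8 and kept only with Cd8a and Cd8b1 UMIs. Summed myeloid markers were at 159 CPM in control tumor, 87.6 in CD8-IFNγRKO tumor, 13.5 in control LN and 20.4 in CD8-IFNγRKO LN, led in tumor by Fcer1g and Cd74, with Lyz2 at 2.59 and 0.617 CPM in the tumors. B cell markers came to 7.56 and 18.7 CPM in the tumors and to 241 and 250 CPM in LN, NK markers to 50.9, 24.9, 0.802 and 1.32 CPM, and γδ T cell markers to 12.7, 26.5, 1.97 and 1.84 CPM. CD4 T cell markers were at 6.15 to 22.1 CPM, melanoma markers at no more than 3.26 CPM, erythroid and platelet markers at no more than 1.94 CPM, and neutrophil and mast cell markers at no more than 0.173 CPM. Leaving out cells with a UMI of a myeloid, NK, B, neutrophil, mast, erythroid, platelet or melanoma marker reversed no member's sign in tumor, and the part of CD4 and γδ T cells was not tested.

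Prf1 lies on chromosome 10 (chr10:61297751-61304684, GRCm38.p6) and Srgn on the same chromosome 1189149 bp away. Nkg7 (chr7:43437138-43438246) and Ctsc (chr7:88278024-88315861) share chromosome 7, and Lamp1 is on chromosome 8. The 4 serpins lie within 198497 bp of chromosome 13 (chr13:32842092-33040588), which holds 5 protein-coding genes, all of them serpins. RefSeq promoter windows of the same build, taken as the 250 bases before an annotated start, were found for 8 of the 9 genes and numbered 9, since Srgn has 2. Motifs were searched on both strands for interferon gamma activated sites (GAS, TTCNNNGAA), interferon-stimulated elements (ISRE, GAAANNGAAA or TTTCNNTTTC), T-box sites (TCACACCT or AGGTGTGA) and RUNX sites (TGTGGT or ACCACA). These letters occur in 7.02%, 2.98%, 1.12% and 14.0% of all 32851 windows of this length. GAS matched in 2 members (Nkg7, Ctsc), ISRE in 3 (Srgn, Lamp1, Serpinb9), T-box in 1 (Nkg7) and RUNX in 4 (Prf1, Nkg7, Srgn, Lamp1), and Serpinb9b and Serpinb6b held none of the 4. The ISRE and RUNX matches of Srgn lie in its window inside the annotated span of the gene (chr10:62507758-62508007). Its window at the 5′ end of the gene (chr10:62527446-62527695) held no match. A match is a description of letters and not a bound site.

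Perforin and Nkg7 are shown because they were the granule genes for which the point values of the ratio to granzyme B did not overlap between the large tumor clones of the genotypes, as described below. The plus strand before the first annotated base of each gene is given, 5′ to 3′, with motif matches in capitals: a RUNX match for Prf1 (chr10:61297586-61297750), and GAS, RUNX and T-box matches in this order for Nkg7 (chr7:43436888-43437137).
Prf1: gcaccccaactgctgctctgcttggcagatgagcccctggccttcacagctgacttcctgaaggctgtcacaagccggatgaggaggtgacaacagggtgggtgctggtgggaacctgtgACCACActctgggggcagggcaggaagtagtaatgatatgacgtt
Nkg7: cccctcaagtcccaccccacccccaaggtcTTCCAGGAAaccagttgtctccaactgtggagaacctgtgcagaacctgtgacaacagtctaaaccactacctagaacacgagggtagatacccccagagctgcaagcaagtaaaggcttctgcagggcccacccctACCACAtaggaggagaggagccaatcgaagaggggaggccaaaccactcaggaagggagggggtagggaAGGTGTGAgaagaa

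Serpinb9 and Serpinb9b are paralogs of which Serpinb9 had UMIs in LN and Serpinb9b had none. The last 100 bases before an annotated transcript start of each are shown for that reason (chr13:33004441-33004540 and chr13:33027314-33027413, plus strand), with the ISRE match of Serpinb9 in capitals. The Serpinb9 stretch lies inside the annotated span of that gene (chr13:32997061-33017955), and the Serpinb9b stretch ends at the base before its gene begins.
Serpinb9: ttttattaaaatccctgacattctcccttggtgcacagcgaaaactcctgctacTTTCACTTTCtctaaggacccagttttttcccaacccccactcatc
Serpinb9b: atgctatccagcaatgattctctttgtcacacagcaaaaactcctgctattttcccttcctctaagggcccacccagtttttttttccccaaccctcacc

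The windows share a stretch of 36 bases in which 32 are identical. It is given for Serpinb9 (chr13:33004481-33004516) and Serpinb9b (chr13:33027350-33027385) with the 4 differing bases in capitals.
Serpinb9: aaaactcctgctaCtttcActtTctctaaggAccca
Serpinb9b: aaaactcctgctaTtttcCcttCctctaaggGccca
Counted from 1 at the 5′ end of the stretch, with the base of Serpinb9 first, the differences are C14T, A19C, T23C and A32G, and A19C and T23C fall inside the ISRE match. The ISRE letters were thus found before Serpinb9 and not before Serpinb9b in these windows.

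Tumor against LN came first, to describe where the killing genes were expressed. Prf1, the pore-forming effector, was at 1162 CPM (1153 to 1170) in control tumor and at 1000.2 CPM (994 to 1007) in CD8-IFNγRKO tumor. In LN it was at 43.5 CPM (41.2 to 46.0) and 43.7 CPM (41.3 to 46.2). Tumor was thus 26.7-fold (25.3 to 28.2) above LN in the control and 22.9-fold (21.6 to 24.2) above it in CD8-IFNγRKO. Of cells thinned to 1600 UMIs, 65.0% of control and 59.8% of CD8-IFNγRKO tumor cells had a Prf1 UMI, against 6.75% and 6.94% in LN. In LN barcodes with B cell markers that the T cell filter left out, thinned to the same depth, 0 of 17 in the control and 1 of 21 in CD8-IFNγRKO had one, with exact binomial intervals that reach 19.5% for 0 of 17, so the LN share cannot be told from background at this number of barcodes.

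Nkg7, a granule membrane protein needed for efficient degranulation, was at 3931 and 3004 CPM in control and CD8-IFNγRKO tumor and at 585 and 590 CPM in LN. Nearly every tumor cell had an Nkg7 UMI (98.1% and 96.9%), and so did 54.6% and 57.1% of LN cells, against 0 of 17 and 0 of 21 barcodes with B cell markers. Srgn encodes serglycin, the proteoglycan core on which granzymes and perforin are packed. It was at 1401 and 1099 CPM in tumor and at 429 and 446 CPM in LN. Nkg7 was 6.72-fold and 5.09-fold higher in tumor than in LN (control and CD8-IFNγRKO), and Srgn 3.26-fold and 2.46-fold. Srgn was also found in 15 of 17 and 17 of 21 barcodes with B cell markers, so its UMIs do not mark cytotoxic cells.

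Ctsc and Lamp1 serve lysosomes of most cells. Ctsc encodes cathepsin C, the peptidase that trims progranzymes to their active form, and was at 159 and 147 CPM in tumor and at 81.1 and 83.2 CPM in LN. Its log2 ratios of 0.97 and 0.82 stayed within the 2-fold limit used for tissue. Lamp1, the lysosomal membrane glycoprotein whose surface exposure (CD107a) serves as a degranulation marker, ran the other way, at 53.3 and 64.9 CPM in tumor and at 109 and 108 CPM in LN. Its log2 ratio of tumor over LN was -1.03 in the control and -0.73 in CD8-IFNγRKO. The Lamp1 transcript was therefore lower in tumor than in LN in both genotypes, while the other 8 members were higher. In cells with no UMI of 8 cycling genes at full depth the values were -0.65 and -0.02, so that the CD8-IFNγRKO difference was not seen in that set. A deep cell is less likely to hold no such UMI, so the set may lean to shallow cells. In tumor cells gated as non-cycling at equal depth, described below, Lamp1 was still below the level of the whole LN library in both genotypes.

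Serpinb9 and Serpinb9b were the members with the widest gap between tissues. Serpinb9, the inhibitor of granzyme B, was at 471 CPM in control tumor, 396 CPM in CD8-IFNγRKO tumor, 8.59 CPM in control LN and 7.87 CPM in CD8-IFNγRKO LN, which is 54.9-fold and 50.3-fold higher in tumor. Serpinb9b, its paralog and a reported inhibitor of granzyme M, was at 145 and 115 CPM in tumor and had no UMI in either LN library. Against a floor of 3 counts per LN library (0.10 CPM in either library) it was 1448-fold higher in control tumor and 1110-fold higher in CD8-IFNγRKO tumor. The lower bounds of the counting intervals were 1177-fold and 902-fold. How reads that match both paralogs were assigned is not given in the sources used here, and their levels are uncertain to that extent.

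Serpinb6b, a mouse inhibitor of granzyme A, was at 268 and 336 CPM in tumor and at 14.7 and 14.0 CPM in LN, 18.2-fold and 24.0-fold higher in tumor. Serpinb1a belongs to the family of leukocyte elastase inhibitors and was found in few tumor cells. It was at 32.3 and 17.7 CPM in tumor and at 1.60 and 0.728 CPM in LN, from 48 and 21 UMIs. Tumor was 20.2-fold and 24.4-fold higher, but barcodes with B cell markers carried Serpinb1a UMIs in 7 of 17 and 8 of 21 cases, far above the 0.187% and 0.0747% of LN T cells. Summed B cell markers were at 241 and 250 CPM in these libraries, and their part in these levels was not tested. Without LN cells that held a UMI of another cell type's marker, B cell markers included, the genotype log2 ratio of Serpinb1a in LN was -2.31. The LN values of Serpinb1a are not read as T cell expression.

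Counted together, 7 of 9 members were at least 2-fold higher and 1 (Lamp1) at least 2-fold lower in control tumor than in control LN, where 16.3% and 11.2% of 8222 genes were. In CD8-IFNγRKO, 7 were higher and 0 lower, against 17.5% and 13.2% of 8285 genes. Genes were counted from 10 CPM in the higher library and 100 UMIs in the pair of libraries, a filter that a gene restricted to tumor passes through its tumor level alone. Leaving TCR, heat shock, ribosomal and mitochondrial genes out of the library size moved the median of all genes from 0.04 to -0.25 (log2) in the control and from 0.05 to -0.22 in CD8-IFNγRKO, and the shares to 12.2% higher and 18.4% lower and to 13.5% and 20.2%. The member counts were the same under that scaling.

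**Figure D1:**
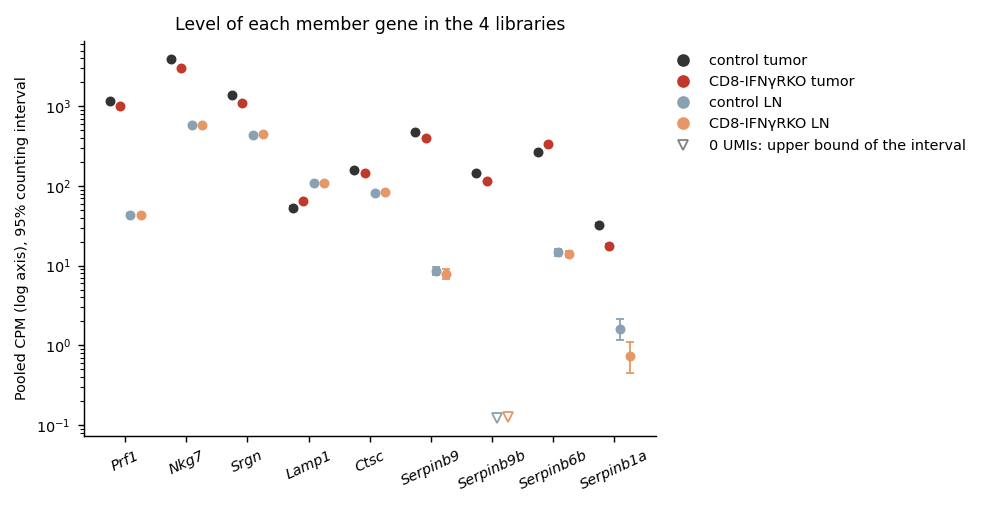
Pooled CPM of the 9 genes in the 4 libraries, with bars for 95% counting intervals (1 library per group, so no replicate error). Open triangles for Serpinb9b in LN, where it had no UMI, mark the upper bound of the interval and not a measured level. Prf1, Nkg7, Srgn, Ctsc and the 4 serpins sit higher in both tumor libraries than in both LN libraries, and Lamp1 sits lower.

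The spread of the members over tumor cells differed from gene to gene. Serpinb9 was found in 42.9% of control and 37.9% of CD8-IFNγRKO tumor cells, Serpinb6b in 29.6% and 32.4%, and Serpinb1a in 4.64% and 2.58%. Serpinb9b was found in 10.1% and 6.71% of cells. The 10% of control cells with most Serpinb9b held 99.5% of its thinned UMIs, against 38.0% for Prf1 in the 10% of cells richest in it. This share follows from how few cells had a UMI of the gene. In the control it was 100% for Lamp1, found in 9.23% of cells, and for Serpinb1a. The Fano factor, the variance over the mean of thinned UMIs, was 2.98 and 3.07 for Serpinb9b and 2.53 and 2.33 for Prf1 in control and CD8-IFNγRKO tumor, where independent counting alone would give a value near 1. For Serpinb1a it was 2.93 and 1.44. In LN, Serpinb9 was found in 1.39% and 1.05% of cells, and Serpinb6b in 2.03% and 2.06%. Serpinb9b was found in 0 of 6404 and 0 of 6690, with intervals that reach 0.0576% and 0.0551%.

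The comparison of genotypes in the tumor asks how these genes are expressed in CD8 T cells whose interferon gamma receptor gene is floxed. All 9 members passed the filter on low values in this comparison. Prf1 was lower in CD8-IFNγRKO than in control tumor by a log2 ratio of -0.22 (-0.23 to -0.20), Nkg7 by -0.39 (-0.40 to -0.38) and Srgn by -0.35 (-0.36 to -0.34). Ctsc had a log2 ratio of -0.12 (-0.16 to -0.08) and Lamp1 of 0.28 (0.22 to 0.35). The serpins did not move as a block. Serpinb9 was at -0.25 (-0.27 to -0.23), Serpinb9b at -0.33 (-0.37 to -0.29) and Serpinb1a at -0.87 (-0.96 to -0.77), whereas Serpinb6b was higher at 0.33 (0.30 to 0.35). Gzmb, the granzyme B transcript, was itself higher in CD8-IFNγRKO, at 4873 CPM against 3359 CPM in the control.

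Only Serpinb1a, 1.82-fold lower, passed a 1.5-fold limit, so that 1 of 9 members was lower and 0 higher, where 4.13% of 7722 genes were lower and 5.5% higher. The median log2 ratio was -0.25 over the members and 0.02 over all genes tested, whose central 90% ran from -0.53 to 0.61. The other 8 members thus lay within the range of most genes. The count differed in subsets of cells picked by depth or cycling genes, and the cause was not tested. Cells of 3000 to 8000 UMIs numbered 3189 in the control and 2403 in CD8-IFNγRKO. This window holds the median depth of the control (6308 UMIs) but not that of CD8-IFNγRKO (9402.5 UMIs), so it may take unlike cells from the libraries. In cells of 3000 to 8000 UMIs, 4 members were at least 1.5-fold lower, namely Prf1 (-0.66), Serpinb9 (-0.62), Serpinb9b (-1.77) and Serpinb1a (-1.13), and 0 were higher, where 3.04% of all genes were lower and 6.95% higher. In cells with no UMI of the 8 cycling genes, Serpinb9 (-0.68), Serpinb9b (-1.13) and Serpinb1a (-1.42) were lower and Lamp1 (0.61) was higher, where 3.48% of all genes were lower and 5.34% higher. Such cells, with no cycling UMI at their full depth, numbered 2345 and 1665. A deep cell is less likely to hold no such UMI, so this set may lean to shallow cells, and unlike ones between the libraries. At equal depth, 3825 and 3324 thinned cells had no such UMI. Among these the genotype differences of Serpinb9 and Lamp1, given below, were smaller and within 1.5-fold. No member's sign differed between these settings and the whole libraries. Cycling cells made up 15.4% of control and 28.3% of CD8-IFNγRKO tumor cells, and the part of this difference in the pooled ratios was not tested.

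**Figure D2:**
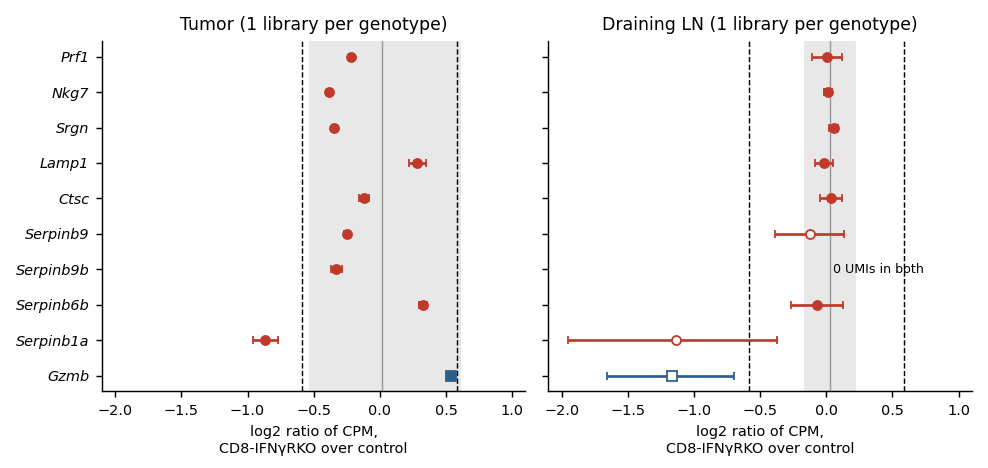
The log2 ratio of CPM in CD8-IFNγRKO over control for each gene in tumor and in LN, with bars for 95% counting intervals from 1 library per group. In tumor 7 genes lie below 0 and Lamp1 and Serpinb6b above it, and in LN the genes at or above 10 CPM lie near 0.

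In LN the genotypes were close. Of the 9 members, 6 passed the filter on low values, and 0 of these were past 1.5-fold, where 0.187% of 7472 genes were higher and 0.308% lower. Prf1 had a log2 ratio of 0.01 (-0.11 to 0.12), Nkg7 of 0.01, Ctsc of 0.04, Lamp1 of -0.02, Serpinb6b of -0.07 and Srgn of 0.06 (0.02 to 0.09). Below the filter, Serpinb9 was at -0.13, Serpinb9b had no UMI, and Serpinb1a was at -1.14 (-1.95 to -0.37) from the 48 and 21 UMIs set aside above. LN cells with 2 or more thinned UMIs of Ccl5, a chemokine of antigen-experienced CD8 T cells, were set beside cells without it. Nkg7 was at 1096 against 546 CPM in the control and 895 against 569 CPM in CD8-IFNγRKO, and Serpinb6b at 32.9 against 13.6 and 24.6 against 13.2 CPM. Prf1 was at 55.1 against 43.0 and 55.8 against 42.4 CPM, with intervals that overlap in both genotypes. The Ccl5-rich cells numbered 246 and 240.

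Tumor cells were next grouped by genes that are not members. Tcf7, a transcription factor of stem-like T cells, and Havcr2, which encodes the checkpoint receptor Tim-3 of differentiated cells, were used as gates on thinned UMIs. Cells with Tcf7 and no Havcr2 numbered 160 of 6402 in the control (2.50%) and 444 of 8358 in CD8-IFNγRKO (5.31%), and cells with Havcr2 and no Tcf7 numbered 2249 and 2115. Depth moved with the gates, with median UMIs per cell of 3650.5 and 3855.5 in the former and 7450 and 10620 in the latter, and its part in the levels was not tested.

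Prf1 was higher in Havcr2+ Tcf7- cells of both libraries. It was at 225 CPM in Tcf7+ Havcr2- and 1402 CPM in Havcr2+ Tcf7- cells of the control, and at 207 and 1250 CPM in CD8-IFNγRKO. Nkg7 was at 1653 and 4242 CPM in the control and at 1659 and 3151 CPM in CD8-IFNγRKO. Ctsc was at 101 and 170, and 88.9 and 156 CPM. Srgn differed less, at 1218 and 1484, and 1018 and 1148 CPM. Lamp1 again ran opposite, at 135 and 48.3 CPM in the control and 138 and 58.9 CPM in CD8-IFNγRKO.

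Among the serpins, Serpinb9 was at 225 CPM in Tcf7+ Havcr2- and 488 CPM in Havcr2+ Tcf7- cells of the control and at 119 and 435 CPM in CD8-IFNγRKO. Serpinb9b was at 19.3 and 173 CPM, and 5.50 and 157 CPM, and Serpinb6b at 146 and 282 CPM, and 132 and 386 CPM. All 3 were higher in Havcr2+ Tcf7- cells of both genotypes. Serpinb1a was at 66.7 and 25.9 CPM in the control and at 6.88 and 15.9 CPM in CD8-IFNγRKO, so the order of its gates was opposite in the genotypes. The control value rests on 52 UMIs in 160 cells and the CD8-IFNγRKO value on 15 UMIs in 444 cells, and in Tcf7+ Havcr2- cells the log2 ratio of CD8-IFNγRKO over control was -3.28 (-4.21 to -2.43).

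Within gates, the genotype ratios of the granule proteins and of the serpins varied. Nkg7 was at a log2 ratio of 0.00 (-0.09 to 0.10) in Tcf7+ Havcr2- cells and of -0.43 (-0.44 to -0.41) in Havcr2+ Tcf7- cells. Serpinb6b was at -0.15 (-0.47 to 0.17) and 0.45 (0.41 to 0.50), and Serpinb9 at -0.91 (-1.20 to -0.63) and -0.17 (-0.20 to -0.13). Prf1 was at -0.12 (-0.37 to 0.14) and -0.17 (-0.19 to -0.14), with overlapping intervals.

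Cells rich in granzymes C to G, a cluster of granzyme genes of strongly activated mouse T cells, had at least 10 thinned UMIs over the 5 genes and numbered 385 in control and 282 in CD8-IFNγRKO tumor. Serpinb9b was at 435 CPM in these and 83.9 CPM in cells without such UMIs in the control, and at 481 and 65.9 CPM in CD8-IFNγRKO. Prf1 was at 1837 and 1020 CPM, and 1712 and 863 CPM. Serpinb6b in these cells was higher in CD8-IFNγRKO (545 against 357 CPM, log2 0.61, 0.52 to 0.70), and Nkg7 was lower (2785 against 4063 CPM, log2 -0.54, -0.58 to -0.51). The gate sums genes that differed in opposite directions between the tumors, with Gzmc higher and Gzmd, Gzme and Gzmg lower in CD8-IFNγRKO. The gated cells may thus hold different granzymes in the genotypes, and the part of this in these ratios was not tested.

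Other cell states were gated on thinned UMIs, namely cycling cells (3 or more UMIs of 8 mitotic genes, 986 and 2368 cells) and cells with an interferon signature (2 or more UMIs of 7 type I interferon response genes, 317 and 597 cells). Prf1 was at 928 CPM in cycling and 1203 CPM in non-cycling control cells and at 862 and 1064 CPM in CD8-IFNγRKO, and Lamp1 at 44.8 and 57.0 CPM and at 56.2 and 78.7 CPM. Both were thus lower in cycling cells of either genotype. The genotype log2 ratio of Serpinb6b was 0.34 in cycling, 0.44 in non-cycling and 0.43 in interferon-signature cells, and that of Serpinb9 was -0.15, -0.33 and -0.56. In interferon-signature cells Serpinb1a was at 56.4 CPM in the control and 25.3 CPM in CD8-IFNγRKO (log2 -1.15, -1.54 to -0.77), and Serpinb9b at 55.9 and 65.1 CPM (log2 0.22, -0.10 to 0.55). Serpinb6b was higher and Serpinb9 lower in CD8-IFNγRKO in all 3 states, whereas the interval of Serpinb9b among interferon-signature cells included 0.

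**Figure D3:**
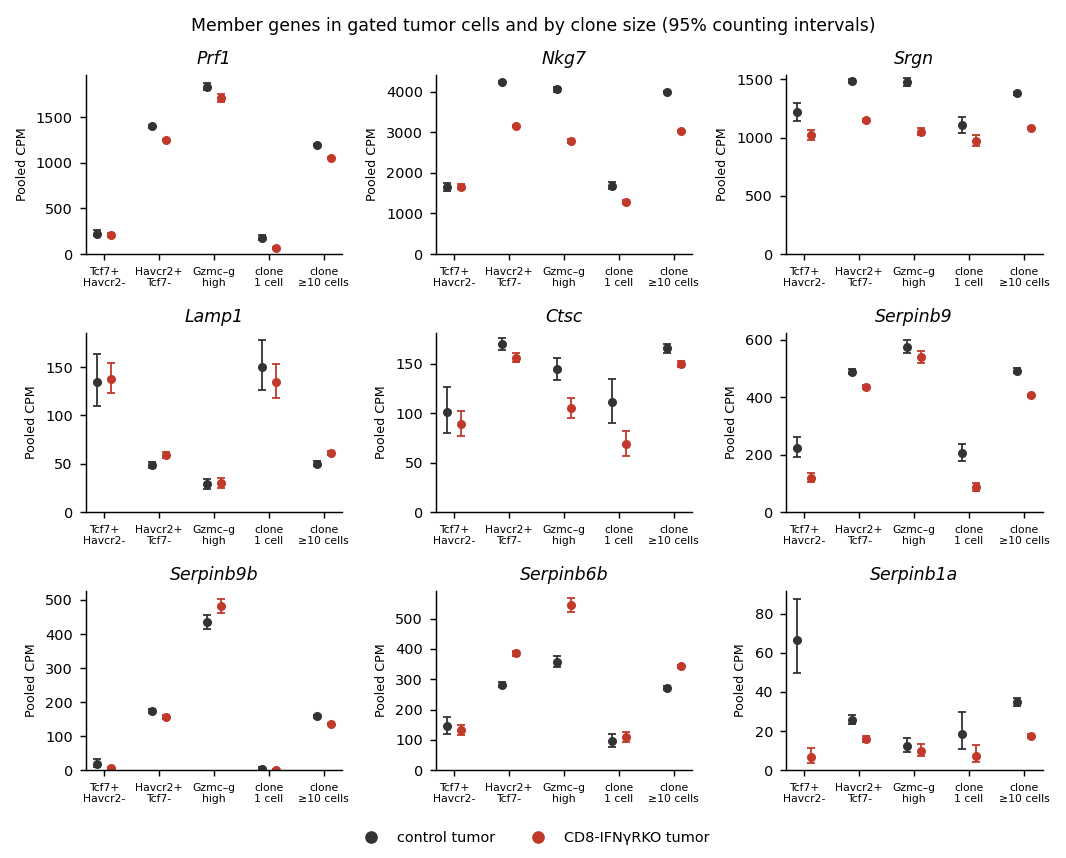
Pooled CPM of the 9 genes in tumor cells gated by Tcf7, Havcr2 and granzymes C to G and in cells of small and large T cell receptor clones, in control and CD8-IFNγRKO (bars, 95% counting intervals). Prf1 and Serpinb9b are lowest in Tcf7+ Havcr2- cells and in clones of 1 cell and highest where granzymes C to G are high, and Lamp1 shows the opposite order.

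T cell receptor libraries of the same tumor cells gave a clone for 4284 of 7103 control cells (60.3%, 259 clones) and for 5937 of 8636 CD8-IFNγRKO cells (68.7%, 429 clones). Prf1 was at 179 CPM in control cells whose clone held 1 cell, at 813 CPM in clones of 2 to 9 cells and at 1196 CPM in clones of 10 or more. In CD8-IFNγRKO it was at 65.8, 553 and 1058 CPM. Serpinb9b was at 3.30, 99.6 and 159 CPM, and at 1.14, 8.17 and 135 CPM. Both genes were thus higher in larger clones of both genotypes. Lamp1 was at 151, 83.3 and 50.3 CPM in the control and at 135, 106 and 60.8 CPM in CD8-IFNγRKO, lower in larger clones. In clones of 1 cell the log2 ratio of CD8-IFNγRKO over control was -1.44 for Prf1 and -1.24 for Serpinb9, from 182 and 364 cells. Median depth was 4041 and 3997.5 UMIs per cell in clones of 1 cell and 6324.5 and 10503 in clones of 10 or more, and its part was not tested.

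Clones of at least 100 cells were then described one by one, a view chosen after their values had been seen. There were 6 in the control, with 3078 cells, and 13 in CD8-IFNγRKO, with 4672 cells. The clones of a library share its 3 mice and are not replicates, and a clone cannot be told apart from the mouse it came from. Prf1 ranged over clones from 1109 to 1322 CPM in the control and from 132 to 1389 CPM in CD8-IFNγRKO, and Nkg7 from 3763 to 4726 and from 2767 to 4250 CPM. Serpinb9 ranged from 349 to 580 CPM and from 112 to 516 CPM, Serpinb9b from 58.1 to 312 and from 0 to 199.8 CPM, Serpinb6b from 168 to 291 and from 105 to 656 CPM, and Serpinb1a from 5.52 to 49.7 and from 3.48 to 30.5 CPM. All 9 members overlapped between the genotypes, where 1.23% of 7722 genes were lower in every CD8-IFNγRKO clone than in every control clone and 1.33% higher in every one.

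Some clones stood apart. In CD8-IFNγRKO, a clone of 149 cells had Prf1 at 132 CPM (106 to 164, 83 UMIs), Serpinb9 at 112 CPM, Serpinb6b at 105 CPM and no Serpinb9b UMI, where a floor of 3 counts in this clone is 4.79 CPM. It also had no Gzmc UMI, against 176 to 1087 CPM in the other 12 large clones, and the lowest Ctsc, at 104 against 123 to 185 CPM. Lamp1 was at 131 CPM, against 47.7 to 108 CPM in the others, and Tcf7 at 38.3 CPM, against 0.813 to 7.29 CPM. The Tcf7 value rests on 24 UMIs, found in 10.1% of the cells. Havcr2 was at 156 CPM, inside the range of the others (152 to 247 CPM). The same cells had Gzmb at 4058 CPM, Nkg7 at 3724 CPM and Srgn at 1426 CPM, each inside the range of the library's other large clones. Its cells were shallow, with a median of 3211 UMIs against 7138.5 to 12652 in the other 12 clones. Leaving it out moved the genotype log2 ratio of Prf1 from -0.22 to -0.21. A clone of 133 cells had the highest Serpinb6b, at 656 CPM (610 to 704), and the highest Serpinb9 of the CD8-IFNγRKO clones, at 516 CPM, with Serpinb9b at 3.48 CPM from 4 UMIs. In the control, a clone of 124 cells had the highest Serpinb9b, at 312 CPM (278 to 349), and also the highest Gzmc of the control clones, at 1064 CPM.

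**Figure D4:**
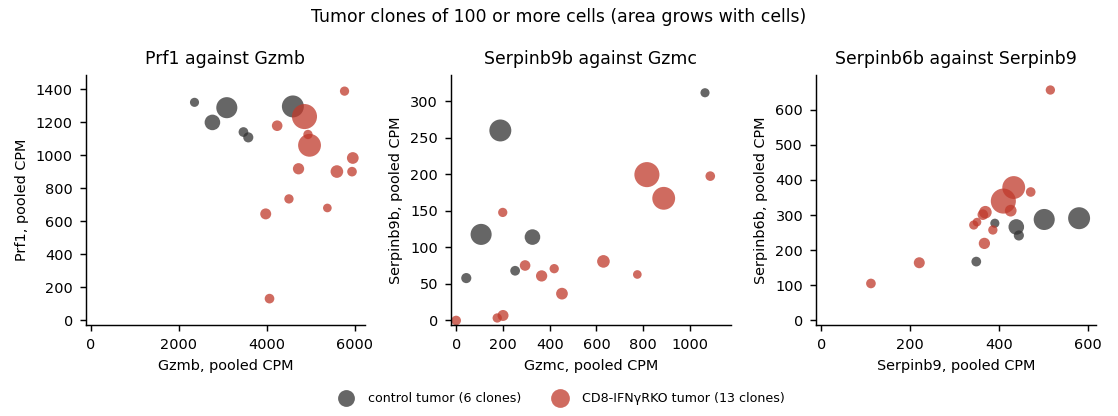
Each point is a tumor T cell clone of at least 100 cells (6 in control, 13 in CD8-IFNγRKO, area growing with its cells), placed by pooled CPM of Prf1 against Gzmb, Serpinb9b against Gzmc, and Serpinb6b against Serpinb9. One CD8-IFNγRKO clone lies apart with Prf1 at 132 CPM and Gzmb at 4058 CPM, and another with Serpinb6b at 656 CPM.

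To set perforin and the inhibitors against the protease they accompany, UMIs per 100 Gzmb UMIs were computed, a ratio within a library that does not depend on its total. Prf1 was at 34.6 (34.3 to 34.9) in control tumor and at 20.5 in CD8-IFNγRKO tumor, and Nkg7 at 117 and 61.6. Serpinb9 was at 14.0 and 8.12, Serpinb9b at 4.32 and 2.37, Serpinb6b at 7.97 and 6.89, and Serpinb1a at 0.962 and 0.364. Srgn was at 41.7 and 22.6, Ctsc at 4.74 and 3.01 and Lamp1 at 1.59 and 1.33. All 9 ratios were lower in CD8-IFNγRKO, in which the denominator Gzmb was higher in CPM. So were the ratios of 93.1% of 7722 genes, and the count of 9 is near that share.

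Over the whole libraries, ratios to Gzmb were lower in CD8-IFNγRKO for 93.1% of 7722 genes, and that share is not given by clone size or gate. The ratio of Prf1 to Gzmb was lower in CD8-IFNγRKO at each clone size. It was at 15.7, 23.9 and 34.7 per 100 Gzmb UMIs in control clones of 1 cell, 2 to 9 cells and 10 or more cells and at 9.21, 14.9 and 20.7 in CD8-IFNγRKO. In Tcf7+ Havcr2- cells it was at 27.3 (23.0 to 32.4) and 23.4 (21.0 to 25.9), with overlapping intervals, and in Havcr2+ Tcf7- cells at 36.4 (35.9 to 36.8) and 21.6 (21.3 to 21.9). Serpinb9 per 100 Gzmb UMIs was at 27.3 and 13.4 in Tcf7+ Havcr2- and at 12.7 and 7.53 in Havcr2+ Tcf7- cells, lower in CD8-IFNγRKO in both gates.

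Over the large clones, Prf1 per 100 Gzmb UMIs ran from 28.3 to 56.2 in the control and from 3.27 to 27.9 in CD8-IFNγRKO. Nkg7 ran from 91.80 to 161 and from 49.3 to 91.78, a gap of less than 0.1. For these 2 of 9 members the point value of every CD8-IFNγRKO clone was below that of every control clone, as for 4.97% of 7722 genes, and no member and 0% of genes were above. The nearest clones had overlapping counting intervals, of 27.6 to 28.9 and 26.8 to 29.0 for Prf1 and of 90.5 to 93.2 and 86.7 to 97.1 for Nkg7. The other 7 overlapped, among them Serpinb9, from 10.1 to 16.6 and from 2.75 to 11.5. The lowest Prf1 value, 3.27 (2.59 to 4.06), was that of the 149-cell clone.

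**Figure D5:**
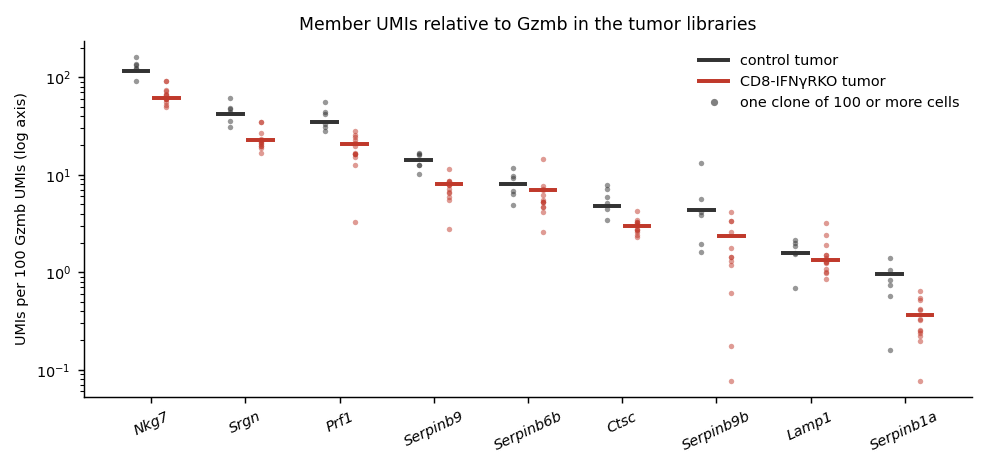
UMIs of each gene per 100 Gzmb UMIs in control and CD8-IFNγRKO tumor, on a log axis. Horizontal bars mark the whole library and dots single clones of at least 100 cells, and counting intervals are not drawn. The CD8-IFNγRKO clone with no Serpinb9b UMI has no dot for that gene. Over the whole libraries all 9 genes are lower in CD8-IFNγRKO, as are 93.1% of the 7722 genes tested. Nkg7 goes from 117 to 61.6 and Serpinb6b from 7.97 to 6.89.

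Across single tumor cells the genes most like each member were ranked by Pearson r of log2 (thinned UMIs + 1) among 2247 genes, a description within 1 library of 6402 control or 8358 CD8-IFNγRKO cells of equal depth. The ranking left out the members themselves and mitochondrial, ribosomal protein and TCR segment genes. Prf1 was most like Gzmb (r = 0.37 in control, 0.42 in CD8-IFNγRKO), followed in the control by Tnfrsf9 (0.28 and 0.27), an activation receptor. Nkg7 was most like Ccl5 (0.38 and 0.31). Serpinb9b was in the control most like the granzyme genes Gzme (0.22 and 0.19), Gzmd (0.20 and 0.17), Gzmf (0.17 and 0.19) and Gzmc (0.14 and 0.21), and its r with Serpinb9 was 0.04 and 0.08. Among the genes ranked, Serpinb6b was most like Gzmb in both genotypes (0.10 and 0.18). Its r with the member Serpinb9 was 0.12 and 0.15, above that with Gzmb in the control. For other members the order differed: Serpinb9 was most like Bhlhe40 (0.13 and 0.09) in the control and Gzmb (0.13 and 0.20) in CD8-IFNγRKO, and Srgn like Ccl4 (0.13 and 0.12) in the control and Ccl5 (0.12 and 0.16) in CD8-IFNγRKO. These values are low in sparse counts, and the ranked values of Lamp1 and Ctsc stayed below 0.07 in the control. No genes were ranked for Serpinb1a, which was below the level required.

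The rest of the pathway was followed in 4 lists, whose counts stand beside the 5.5% of 7722 genes that were higher and the 4.13% that were lower in CD8-IFNγRKO tumor. Of 30 genes of the granule release machinery, 25 passed the filter in tumor, and 0 were higher and 1 lower in CD8-IFNγRKO, Sytl2, a Rab27 effector (41.7 against 65.5 CPM). The list's median log2 ratio was -0.16 against 0.02 for all genes. Of 34 granule and lysosome contents, 28 passed, with 4 higher and 5 lower and a median of -0.17. The higher ones included Gzma (175 against 44.7 CPM), Gzmc (593 against 209 CPM) and Ctsz (33.0 against 14.8 CPM), and the lower ones Gzmd (41.5 against 282 CPM), Gzme (49.8 against 364 CPM) and Gzmg (1.31 against 25.7 CPM), close copies of each other between which reads may have been split, so that their levels are uncertain.

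Of 31 other serpins, 29 were in the matrices and 4 passed in tumor, with 0 higher and 2 lower. These were Serpine2, an inhibitor of extracellular serine proteases (96.1 against 425 CPM, log2 -2.15), and Serpina3g, an intracellular serpin of activated T cells (138 against 214 CPM, log2 -0.63). Serpinb6a, another member of the mouse serpin B6 group, was at 165 against 218 CPM (log2 -0.40), opposite in sign to Serpinb6b. Of 12 effector regulators 10 passed, 0 were past 1.5-fold, and the median was -0.15, with Eomes at 0.44, Irf4 at -0.42 and Batf at -0.41. In LN 23, 21, 2 and 7 genes of the 4 lists passed and 0 differed by 1.5-fold.

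For the tissues, the shares of all genes were 16.3% higher and 11.2% lower in control tumor than in LN, and 17.5% and 13.2% in CD8-IFNγRKO. In the control, 6 of 25 release genes were higher in tumor, led by Stx11, a syntaxin required for granule fusion (82.6 against 2.10 CPM), with Sytl2 and Vamp8 (289 against 65.8 CPM), and 1, Rabggta, was lower. In CD8-IFNγRKO the counts were also 6 and 1 of 25. Of the contents, 15 were higher and 3 lower of 30 in the control, and 15 and 2 of 29 in CD8-IFNγRKO. Of 5 other serpins, 4 were higher in tumor in each genotype (Serpine2, Serpina3f, Serpina3g and Serpinb6a) and Serpini1 was lower. Of 11 effector regulators, 6 were higher and 1 lower in each genotype, with Tbx21, the factor T-bet, at 106 against 5.31 CPM, Prdm1 at 54.0 against 1.20 CPM and Id3 at 1.23 against 71.3 CPM in the control. The medians of the 4 lists were 0.50, 0.99, 6.89 and 2.02 in the control and 0.28, 1.04, 7.37 and 1.49 in CD8-IFNγRKO, against 0.04 and 0.05 for all genes.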

How the data were processed

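Single cells were profiled with 10x 5′ v2 chemistry. Per the labels, the authors ran Cell Ranger multi on mm10 and deposited raw UMI counts per gene and cell (called barcodes only) and filtered TCR contigs. From the deposited counts, cells were kept if they had UMIs of Cd2, Cd8a and Cd8b1, 200 to 6000 genes, no more than 3% of UMIs from mitochondria and no more than 20% from any gene. The study's removal of a macrophage cluster was not repeated and doublets were not called. Pooled CPM had exact Poisson intervals, log2 ratios conditional binomial and shares Clopper-Pearson intervals, all at 95% and for counting error only. Zero counts were set to 3 counts per library in ratios. With 1 library per group no test was run. A clone was set by the V gene, J gene and CDR3 bases of its alpha and beta chain. Named genes were all members, and per list the 3 highest and 3 lowest ratios, and the genes most like a member. The members and lists were chosen with earlier results of these data known. Alternatives covered scaling, depth, cell filters, leaving out the 8% of cells with most UMIs, cycling, pseudocounts and folds. Of the alternatives, 2 on clones were chosen after seeing the data. The ratio, its interval and the fold call were tested on simulated independent Poisson counts. These hold no spread between cells, clones or mice. Sequences came from RefSeq (GRCm38.p6). Tools were scipy 1.17.1, numpy 2.4.6 and pandas 2.3.3 under Python 3.11.15, with plots from matplotlib 3.10.9.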

Additional observations from a re-analysis of the deposited data

Results flagged for a closer look

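Srgn, which encodes the serglycin core protein, was lower in CD8-IFNγRKO than in control tumor (log2 ratio -0.35) and slightly higher in CD8-IFNγRKO than in control LN (log2 ratio 0.056). The LN value lay between the 25th and 75th percentiles of the 7472 genes tested there (-0.04 and 0.10, median 0.03), so it does not stand out from other genes. Srgn is listed because the directions were opposite in the tissues. The difference between them was not tested, since there was 1 library per tissue and genotype.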

How the results depend on the processing

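Other settings covered scaling, depth, cell filters, leaving out the cells with most UMIs, cycling and pseudocounts. Of 420 log2 ratios of members under them, 249 stayed within the counting interval. Another 171 left it with the same sign or within the fold limit, and 0 of the called ones changed sign. The number of members past 1.5-fold between the tumors, 1 in the whole libraries, was 2 (0 higher, 2 lower, where 6.8% and 3.54% of all genes were) with the mean of each cell's own CPM, 4 (0 higher, 4 lower, 6.95% and 3.04% of all genes) in cells of 3000 to 8000 UMIs, 4 (1 higher, 3 lower, 5.34% and 3.48%) in cells with no UMI of the 8 cycling genes, and 5 (1 higher, 4 lower, 16.8% and 12.2%) with a lower fold limit (0.32 on the log2 scale). With clones of 100 or more cells weighted equally, an alternative chosen after seeing the data, it was 2 lower, Serpinb9b (-0.86) and Serpinb1a (-0.65), where 6.5% of genes were higher and 4.01% lower. The cells with no cycling UMI were picked at full depth, as described above, and the cause of these shifts was not tested. In LN, irrespective of the filter on low values, 1 member (Serpinb1a) was past 1.5-fold, and 0 were with 10 CPM added to both libraries. Serpinb1a in LN was at -2.31 without cells that held a UMI of another cell type's marker. With no CPM minimum and at least 20 UMIs, 10.7% of genes were higher and 8.49% lower in CD8-IFNγRKO tumor, in place of 5.5% and 4.13%, and 2.54% and 3.30% in LN, in place of 0.187% and 0.308%. No paired analysis was possible because there was 1 library per group. Depth limits the LN values of Serpinb9, Serpinb9b and Serpinb1a, and the 2 tumor libraries differed in depth per cell.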
